A study of Mus musculus with 6 samples.

Results

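A set of 110 of the 17144 genes measured on 6 expression arrays was read lower in 1 array of neural progenitor cells (NPCs), named NP39, than in the other NPC arrays, NP106 and NP107. A gene was a member when the mean of NP106 and NP107 exceeded NP39 by more than 1.5 on the log2 scale (1 unit is a doubling) and NP106 and NP107 lay within 1 of each other. No gene that passed the first condition failed the second. The members made up 0.642% of all genes, and 158 genes met the same rule in the opposite direction, with NP39 higher. The members were chosen by their levels in the 3 NPC arrays, so those levels and the gap to NP39 are a description and carry no test. The arrays of embryonic stem cells (ESCs) played no part in the choice.

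All samples shared a wild type 129SvJae/C57B6 F1 background and go back to the line V6.5, which came from a blastocyst. The 3 ESC samples (ES1, ES2 and ES3) were grown with serum and LIF, which holds mouse ESCs undifferentiated. The 3 NPC samples (NP106, NP107 and NP39, replicates 1 to 3) were derived from these ESCs in culture and kept in N3 medium on polyornithine and laminin with the growth factors bFGF and EGF. NP39 is called a biological replicate like the others, and whether it was a separate derivation, clone or passage is not given in the sources used here. With a common cell line as origin, the p-values measure the spread between these cultures only. Values are log2 expression per gene after robust multi-array averaging (RMA), and arrays give no count of molecules.

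NPCs are dividing cells of the early nervous system that give rise to neurons and glia. They are held in that state in culture by EGF and bFGF. In the embryo, progenitors carry a position along the head to tail and back to belly axes, written in transcription factors such as the HOX, NKX and FOX families, and cultured lines can keep or lose parts of that identity. NPCs are also known to make their own cholesterol, a pathway whose genes are controlled together by the SREBP factors.

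The array medians were between 5.59 and 5.76, and that of NP39 was 5.59, beside 5.59 in NP107 and 5.61 in NP106. The 3' minus 5' probe difference for beta-actin, a measure of RNA integrity, was 0.26 in NP39, 0.30 in NP107 and 0.43 in NP106, against 0.36 to 0.45 in ESCs. For Gapdh it was -0.14 in NP39 against -0.16 and -0.10. The part of these values in the gaps of NP39 was not tested. Of the 10 neural progenitor markers, 5 could be matched to a row by name (Nes, Fabp7, Vim, Slc1a3 and Notch1). Their mean level was 10.02 in NP106, 9.95 in NP107 and 10.37 in NP39, against 6.11 to 6.17 in ESCs. NP39 was above the mean of NP106 and NP107 in 3 of them (Fabp7, Slc1a3 and Notch1) and below it in 2, with gaps of 0.07 for Nes and 0.18 for Vim, and none of the 5 was a member. None of the 8 pluripotency, 8 fibroblast or 8 mesoderm and endoderm markers could be matched to a name, so these cell types were not checked.

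The largest gap among all members was in ENSMUSG00000051855, for which no symbol was found. It read 8.91, 9.07 and 9.05 in ESCs, 12.04 in NP106, 12.18 in NP107 and 4.30 in NP39. NP39 was thus the lowest of the 6 arrays, by more than 4 units below every ESC array, while the others were above the ESCs. The next was Foxd1, a forkhead factor known from kidney stroma and the developing hypothalamus. It read 3.11, 3.11 and 3.23 in ESCs, 7.05 in NP106, 7.02 in NP107 and 2.99 in NP39, which is the ESC level. The gap was below 2 units in 62 members, between 2 and 3 in 39, between 3 and 4 in 7 and above 4 in these last 2 genes. The smallest gap equals a 2.84-fold difference. Whether genes with the lowest readings, such as Foxd1 in NP39 and in ESCs, were above background there was not tested, so their gaps are given on the log2 scale with no fold. NP106 and NP107 themselves differed by a median of 0.12 over the members, and by at most 0.65, in the histone gene Hist1h4i.

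**Figure D1:**
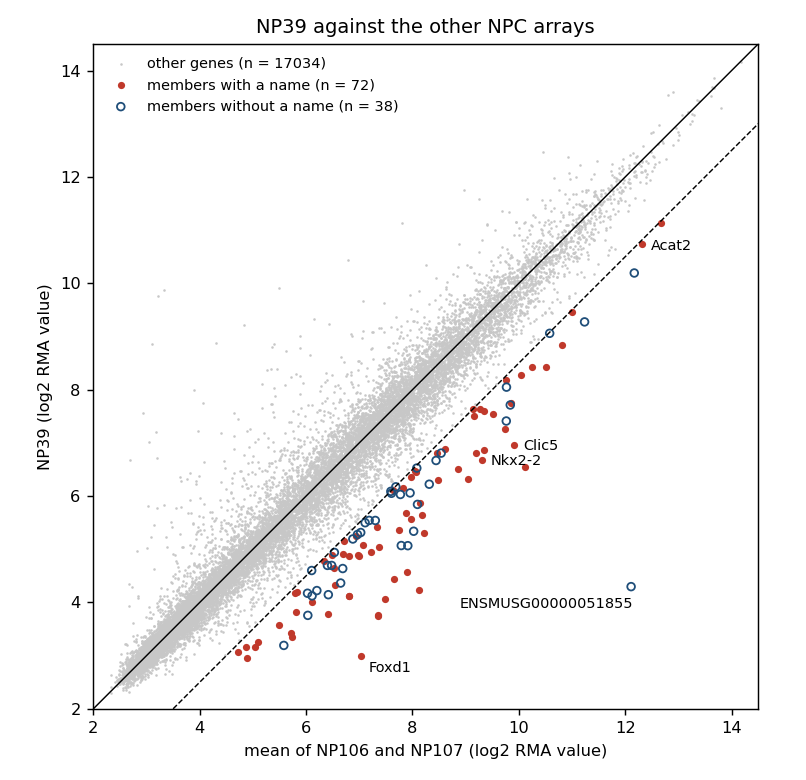
Each gene is a point, with the mean of NP106 and NP107 on the horizontal axis and NP39 on the vertical axis, both in log2 RMA units. The solid line marks equal values and the dashed line a gap of 1.5. The 110 members lie below the dashed line by the rule, 72 with a name as filled points and 38 without as open circles, and ENSMUSG00000051855 stands apart from all others at a gap of 7.81.

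The values just inside and just outside the limit were close together. The 3 smallest gaps among members were 1.51, 1.505 and 1.505, all in genes without a symbol. The 3 largest gaps left out were 1.48, 1.48 and 1.48.

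Symbols were available for 72 members and missing for 38. They were taken by equal values on all 6 arrays from a list of 1999 genes, all of which had a mean of the NPC arrays at least 0.83 above that of the ESC arrays. Every named member is therefore higher in NPCs by the way names were found, and this direction is not a result. The 38 members without a symbol are those for which NPCs as a whole were near or below the ESCs. In them the median ESC mean was 7.91, against 7.60 for NP106 and NP107 and 5.42 for NP39. In the 72 named members the median ESC mean was 4.26, against 7.78 for NP106 and NP107 and 5.33 for NP39. Members with and without a symbol had like levels in the NPC arrays, so their difference in the ESC level follows from how names were found.

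Set against ESCs, the members fell into several patterns. In 55 members, 49 of them named, NP106 and NP107 were more than 1 unit above the ESC mean and NP39 was within 1 unit of it. In 23 members, all named, NP39 was above the ESC mean by more than 1 as well, but less than the other NPC arrays. In 20 members, none named, NP106 and NP107 were within 1 of the ESC mean and NP39 was more than 1 below it. In 7 both were more than 1 below, in 3 NP39 was below and the others above, and in 2 both were within 1. For the most common pattern, then, NP39 stood near the ESC level and the other NPC arrays stood apart from it. In those members "lost in NP39" describes the gap between NPC arrays and not a level below that of ESCs. In 30 of the 110 members NP39 did lie more than 1 below the ESC mean.

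Counted by NP39 alone, it was within 1 of the ESC mean in 57 of 110 members (51.8%), against 79.0% of all genes. It was more than 1 above the ESC mean in 23 (20.9%), against 9.49% of all genes. It was more than 1 below in 30 (27.3%), against 11.5% of all genes. It was the lowest of the 6 arrays in 49 members, 11 named and 38 not, against 21.6% of all genes. It lay between the lowest and the highest ESC array in 8 members, all named, against 20.6% of all genes. These shares follow in part from the rule, which took genes with NP39 low.

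**Figure D2:**
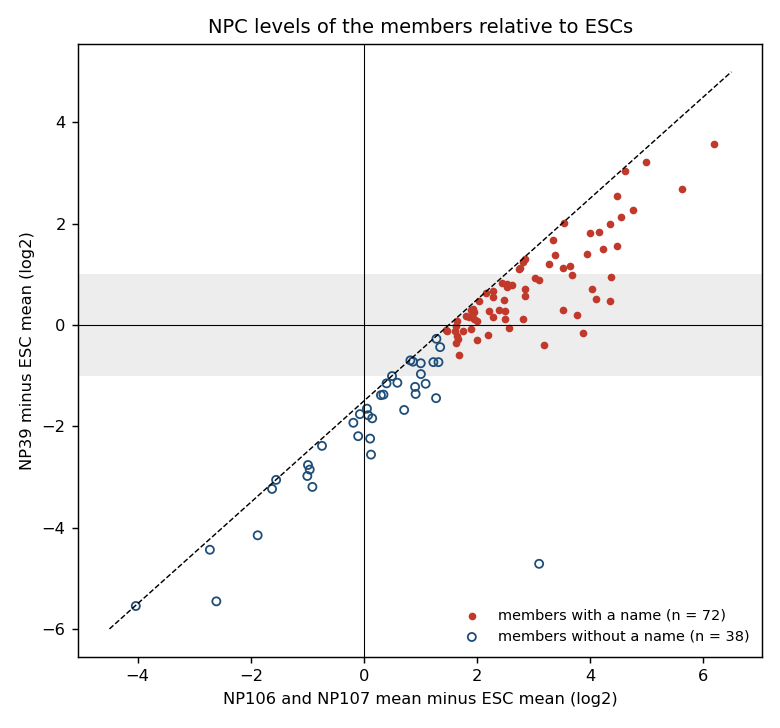
Each member is a point, with NP106 and NP107 minus the ESC mean on the horizontal axis and NP39 minus the ESC mean on the vertical axis, both log2 differences. The grey band marks NP39 within 1 of the ESC mean and the dashed line the rule's gap of 1.5. Named members (filled) lie to the right because of how names were found, with 49 in the band and 23 above it, and 30 of the 38 members without a name (open) lie below the band.

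The ESC arrays, which the rule did not use, agreed closely at the members. The median SD over ES1 to ES3 was 0.11 over the 110 members and 0.09 over all genes, and the highest was 0.57, in Ppil6.

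Whether NPCs as a group differed from ESCs at these genes was tested with limma, on the mean of 3 NPC arrays against 3 ESC arrays. Calls needed an adjusted p below 0.05 and more than a 1.5-fold difference. The test uses the same NPC arrays as the choice of members. The calls and p-values, also those of single members below, are therefore given as a description and support nothing about the set. NP39 also enters the spread of the NPCs, and the median standard error was 0.50 in members and 0.11 in all genes. Of the members 52 were called higher in NPCs, beside 15.4% of all genes, and 9 were called lower, beside 18.7% of all genes. All 52 were named and all 9 were without a symbol. Of the 1999 genes with a name 1948 (97.4%) were called higher, and of the 72 named members 52 (72.2%). Without NP39, 87 members were called higher, and without any other array 32 to 34. The share of all genes called in these fits was not counted. The rule took genes with NP39 low, so the higher count without NP39 follows in part from the rule. The groups did not overlap, with NPCs the higher, in 53 members, against 26.1% of all genes, and with NPCs the lower in 13, against 32.6%. All 53 were named, and NPCs were the higher without overlap in 1970 of the 1999 genes with a name. Of the 72 named members, the 20 not called had NP39 at most 0.12 above the ESC mean, and the 52 called had it at least 0.16 above.

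To place NP39 relative to ESCs, its difference from the ESC mean was taken as a share of that of NP106 and NP107. Both differences are on the log2 scale, so this share, here and below, is not a share of the transcript amount. The median share was 21.1% over the 72 named members. It was 9.41% in the 49 with NP39 within 1 of the ESC mean, and 45.4% in the 23 above it, with a range of 32.1% to 65.8%. The share was over 50% in 6 members, and NP39 was below the ESC mean in 15.

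Transcription factors were the largest group with a common function, with 10 members and a median gap of 2.63. NP39 was within 1 of the ESC mean in 8 of them, beside 79.0% of all genes and 26.9% of genes with a name. NPCs as a whole were called higher in 6, beside 97.4% of genes with a name, and the counts of calls in the other groups stand beside the same share. After Foxd1 came Osr2, a zinc finger factor of palate, limb and kidney development. It read 3.39, 3.14 and 3.17 in ESCs, 7.40 in NP106, 7.28 in NP107 and 3.74 in NP39. NP39 was above every ESC array by less than 1, and the NPC mean was higher by 2.91 ± 0.91 (standard error, limma adjusted p = 0.0332). Hoxc4, which specifies position along the trunk, read 3.94, 4.14 and 4.39 in ESCs, 7.29 in NP106, 7.41 in NP107 and 3.77 in NP39. Here NP39 was below every ESC array, and NPCs were not called (difference 2.00 ± 0.91, limma adjusted p = 0.115). Foxd1 was not called either, at 2.54 ± 1.02 (limma adjusted p = 0.0801). Mecom, a zinc finger factor of blood stem cells, was at 6.33 and 6.50 in NP106 and NP107 and at 3.79 in NP39, inside the ESC range of 3.75 to 3.96.

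Nkx2-2, a homeodomain factor of the ventral neural tube, was the transcription factor with the largest share of the log2 difference left in NP39. It read 3.16, 3.00 and 3.16 in ESCs, 9.38 in NP106, 9.24 in NP107 and 6.68 in NP39. NP39 was far above all ESC arrays and still 2.62 below the other NPC arrays, which left 57.7% of the log2 difference. The NPC mean was higher by 5.33 ± 0.67 (limma adjusted p = 0.000455). Foxa1, a forkhead factor of the floor plate and endoderm, was at 6.44 and 6.65 in NP106 and NP107, at 4.33 in NP39 and at 3.99 to 4.10 in ESCs. Zfp711, Onecut2, Barx1 and Tbx18 completed the group, with gaps of 2.68, 1.87, 1.69 and 1.56. Barx1, of stomach and facial mesenchyme, was at 5.25 in NP39 and inside the ESC range of 4.87 to 5.28, whereas Tbx18, of somites and mural cells, was at 4.77 and above all ESC arrays.

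**Figure D3:**
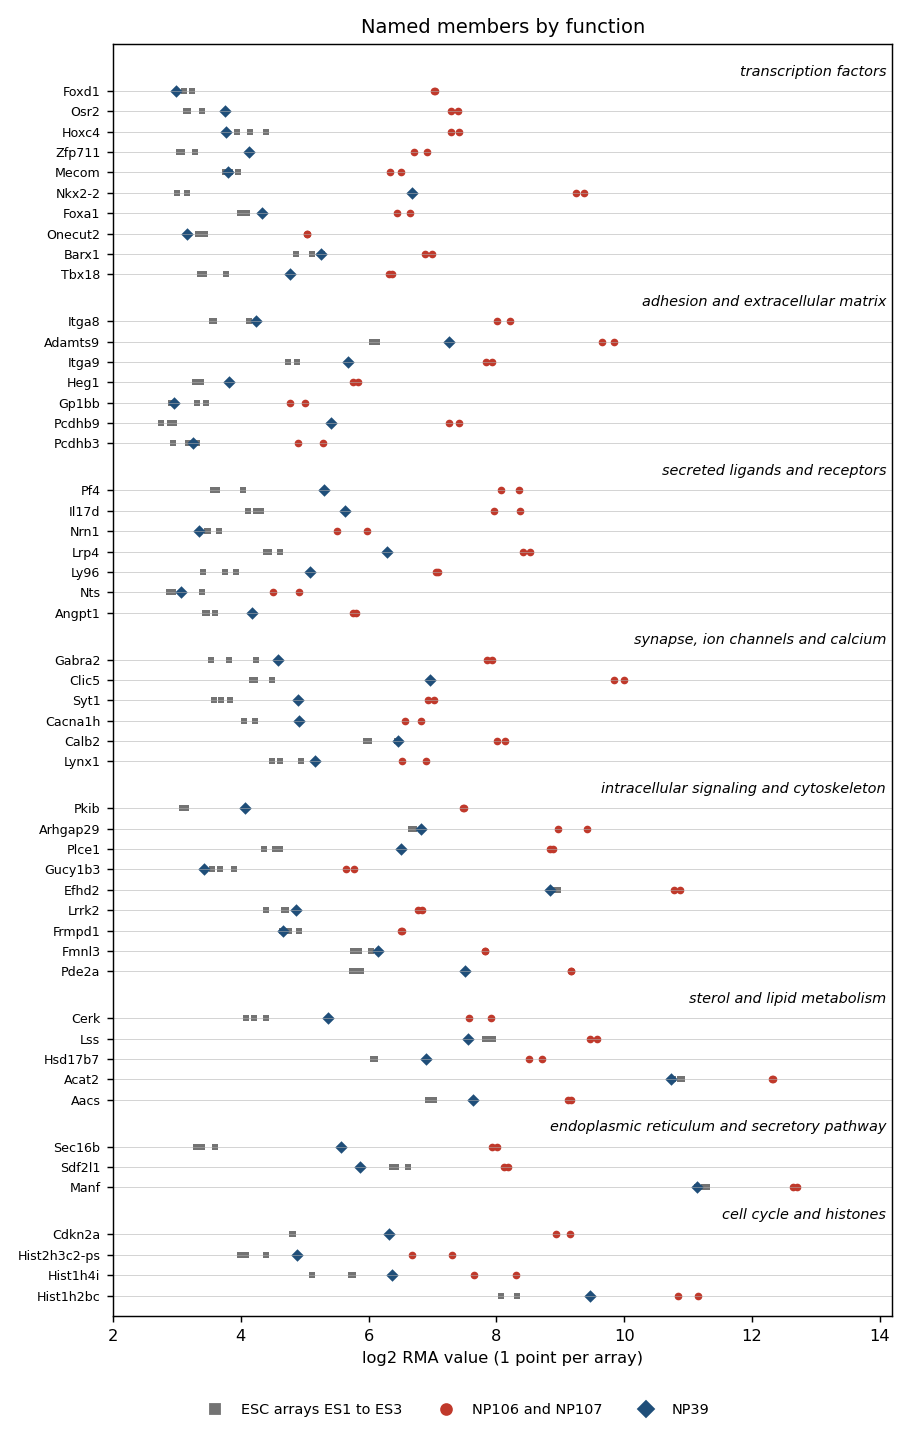
The log2 RMA value on each array is shown for 51 named members in 8 functional groups, with squares for ES1 to ES3, circles for NP106 and NP107 and a diamond for NP39. NP106 and NP107 sit together at the right of every row, and NP39 sits at the ESC squares in genes such as Foxd1 (2.99) and Mecom (3.79) and between the 2 cell types in genes such as Nkx2-2 (6.68) and Clic5 (6.97).

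The gaps were set beside other genes of the same families, from lists written with the members' names known, so the lists are no independent evidence. Across the 1999 named genes NP39 was below the mean of NP106 and NP107 in 56.1%, with a median gap of 0.09, and across all genes in 51.6%, with a median of 0.01. Of 19 transcription factors of stroma and mesenchyme, 8 had names, 5 were members (Foxd1, Osr2, Mecom, Barx1 and Tbx18) and the median gap was 1.63. Of the remaining 3, Tbx15 had a gap of 0.09, and Twist1 and Foxc1 were higher in NP39, with gaps of -0.65 and -1.20. Of 16 genes of the ventral neural tube and Hedgehog signaling 4 had names, with Nkx2-2 and Foxa1 as members. The other members of that list with names were Olig1, with a gap of 0.22, and Olig2, with a gap of -0.65, both factors of the motor neuron and oligodendrocyte domain.

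Among 39 HOX genes 4 had names, and they did not go together. Hoxc4 had a gap of 3.58 and Hoxa3 of 0.33, but Hoxd8 and Hoxd9 were higher in NP39, with gaps of -1.16 and -2.47. Hoxd9 read 5.33, 5.19 and 5.65 in ESCs, 5.55 and 5.27 in NP106 and NP107, and 7.88 in NP39, and so belonged to the set with NP39 high. None of 5 named genes of dorsal and anterior patterning was a member, and their median gap was -0.21. Lhx2, a factor of the forebrain and eye, came nearest with a gap of 1.37, while En1, of the midbrain and hindbrain boundary, was higher in NP39, with a gap of -1.22.

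Adhesion and matrix genes made up 7 members, with a median gap of 1.98. Itga8, the integrin chain that binds nephronectin, read 3.58, 3.55 and 4.12 in ESCs, 8.01 in NP106, 8.22 in NP107 and 4.24 in NP39. NP39 was barely above the highest ESC array, and the NPC mean was higher by 3.07 ± 0.99 (limma adjusted p = 0.0373). Itga9 was at 7.83, 7.93 and 5.67 in NP106, NP107 and NP39, against 4.73 to 4.88 in ESCs. Adamts9, a protease of the proteoglycan versican, was at 9.65, 9.84 and 7.26, against 6.06 to 6.13 in ESCs, so that NP39 stood above all ESC arrays in both. Of 20 integrin genes 6 had names, and they were split: Itga1 had a gap of 1.01, while Itgav, Itgb1 and Itgb8 were higher in NP39, with gaps of -0.32, -0.46 and -0.88. The other members of the group were Heg1 and Gp1bb, with gaps of 1.98 and 1.93, and a pair of protocadherins.

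The beta protocadherins are cell surface proteins that neurons use to tell themselves from their neighbours, and their genes lie in 1 cluster and are much alike in sequence. Of 22 genes 12 had names, 11 of these were lower in NP39 and the median gap was 0.69. The 11 include 2 members, lower by the rule, and stand beside 56.1% of all genes with a name. Pcdhb9 was at 7.42 and 7.26 in NP106 and NP107, at 5.41 in NP39 and at 2.75 to 2.96 in ESCs, and kept 56.9% of the difference. Pcdhb3 was at 5.29, 4.89 and 3.26, against 2.95 to 3.31 in ESCs, so NP39 lay inside the ESC range. Pcdhb7 and Pcdhb21 were below the limit, with gaps of 1.32 and 1.06, and Pcdhb11 had a gap of -0.01. How far probes for these genes read each other's transcripts was not tested.

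Secreted ligands and receptors made up 7 members, with a median gap of 2.18. NP39 was above the ESC mean by more than 1 in 4 of them, beside 31.9% of named members and 73.1% of genes with a name. Pf4, a platelet chemokine, read 3.62, 4.03 and 3.56 in ESCs, 8.35 in NP106, 8.07 in NP107 and 5.31 in NP39. Il17d, a cytokine, was at 8.37, 7.97 and 5.63, and Lrp4, the receptor for agrin, at 8.53, 8.42 and 6.29. In these 3 genes NP39 lay between the ESCs and the other NPC arrays, clear of both. Nrn1, which promotes neurite growth, was different, at 5.50, 5.97 and 3.35, with NP39 below all ESC arrays (3.46 to 3.66). Ly96, the partner of the receptor TLR4, had a gap of 1.98, the neuropeptide gene Nts one of 1.65, and Angpt1, the ligand of TIE2, one of 1.61.

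Genes of synapses, ion channels and calcium made up 6 members, with a median gap of 1.93. The 6 were called higher in NPCs, as were 97.4% of all genes with a name. Gabra2, a chain of the GABA-A receptor, read 4.23, 3.54 and 3.82 in ESCs, 7.85 in NP106, 7.93 in NP107 and 4.58 in NP39. NP39 was above all ESC arrays by a small margin, and the NPC mean was higher by 2.92 ± 0.85 (limma adjusted p = 0.0250). Clic5, a chloride channel protein, was at 9.84, 9.99 and 6.97, against 4.17 to 4.48 in ESCs, which left 47.6% of the difference in NP39. Syt1, the calcium sensor of synaptic vesicles, was at 6.93, 7.02 and 4.90, against 3.58 to 3.82. Cacna1h, Calb2 and Lynx1 had gaps of 1.79, 1.61 and 1.56. Of 10 neuron markers 2 had names, Syt1 and Dcx, a tubulin-binding protein of young neurons, and Dcx had a gap of 1.20. The mean level of these 2 markers was 5.90 in NP106, 6.04 in NP107 and 4.33 in NP39, against 3.51 to 3.68 in ESCs. Syt1 is a member, so the lower mean in NP39 follows in part from the rule, and Dcx is the only marker of the 2 outside it. In bulk RNA, fewer cells of a type and less RNA per cell cannot be told apart, and the part of neurons in these gaps was not tested.

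Pf4 and Gp1bb are also the 2 of 9 endothelial and blood markers with a name. Their mean level was 6.68 in NP106, 6.42 in NP107 and 4.13 in NP39, against 3.47 to 3.51 in ESCs. Both are members, so their lower level in NP39 follows from the rule. Only 1 of 6 astrocyte and 1 of 7 oligodendrocyte lineage markers had a name, S100b and Olig2, and these were higher in NP39. S100b was at 6.32, 6.13 and 7.02, and Olig2 at 11.07, 10.96 and 11.67 in NP106, NP107 and NP39. They do not stand for glial genes as a class, and Olig1, outside these marker lists, had a gap of 0.22. Whether any of these cell types had a part in the members' values was not tested.

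Genes of intracellular signaling and the cytoskeleton made up 9 members, with a median gap of 1.98. Pkib, an inhibitor of cAMP-dependent protein kinase, read 3.08, 3.12 and 3.14 in ESCs, 7.48 in NP106, 7.50 in NP107 and 4.07 in NP39. NP39 was above all ESC arrays, by less than 1 over their mean, and the NPC mean was higher by 3.23 ± 0.87 (limma adjusted p = 0.0175). Arhgap29 was at 8.96, 9.42 and 6.81, against 6.66 to 6.71 in ESCs. Plce1, a phospholipase C, was at 8.88, 8.84 and 6.51, against 4.36 to 4.61, so that NP39 lay midway in this gene and near ESCs in the one before. Gucy1b3, a subunit of soluble guanylate cyclase, was at 3.42 in NP39 and below all ESC arrays, with a gap of 2.29. Efhd2, Lrrk2, Frmpd1, Fmnl3 and Pde2a had gaps between 1.66 and 1.98.

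Sterol and lipid metabolism gave 5 members, with a median gap of 1.72. Of these Lss, Hsd17b7 and Acat2 belong to cholesterol synthesis. Lss, which closes the ring system to lanosterol, read 7.95, 7.92 and 7.82 in ESCs, 9.57 in NP106, 9.46 in NP107 and 7.55 in NP39. NP39 was the lowest of the 6 arrays. Acat2, which joins acetyl-CoA units at the start of the pathway, was at 12.31, 12.32 and 10.74, with NP39 again below every ESC array (10.77 to 10.91). Hsd17b7, of the later steps, was at 8.51, 8.71 and 6.89, against 6.07 to 6.11 in ESCs. Hsd17b7 was called higher in NPCs (1.96 ± 0.44, limma adjusted p = 0.00822), while Lss and Acat2 were not (limma adjusted p = 0.161 and 0.0980).

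The named genes in the rest of the cholesterol pathway were also lower in NP39. Of 20 genes 11 had names, all 11 were lower in NP39, and the median gap was 1.24. These counts include the 3 members, which are lower by the rule, and 56.1% of all genes with a name were lower in NP39. Sc4mol, Sc5d, Nsdhl, Sqle, Dhcr7 and Cyp51 had gaps between 1.03 and 1.33, and Mvk and Tm7sf2 gaps of 0.64 and 0.36. The mean level of the 11 was 10.24 in NP106, 10.34 in NP107 and 9.09 in NP39, against 8.41 to 8.52 in ESCs, and 8 were called higher in NPCs, beside 97.4% of genes with a name. All 11 have their names from the list of genes higher in NPCs, so the remaining 9 are not represented. Genes of SREBP control and sterol uptake were mixed: of 7 with names (of 16) 4 were lower in NP39, with a median gap of 0.62. Aacs, which activates acetoacetate, was a member (1.52) and Stard4, a carrier of cholesterol, had a gap of 0.96. Srebf1, Scap and Scd2 were slightly higher in NP39, with gaps of -0.39, -0.20 and -0.13. Cerk, a ceramide kinase, had a gap of 2.38 and completed the group.

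**Figure D4:**
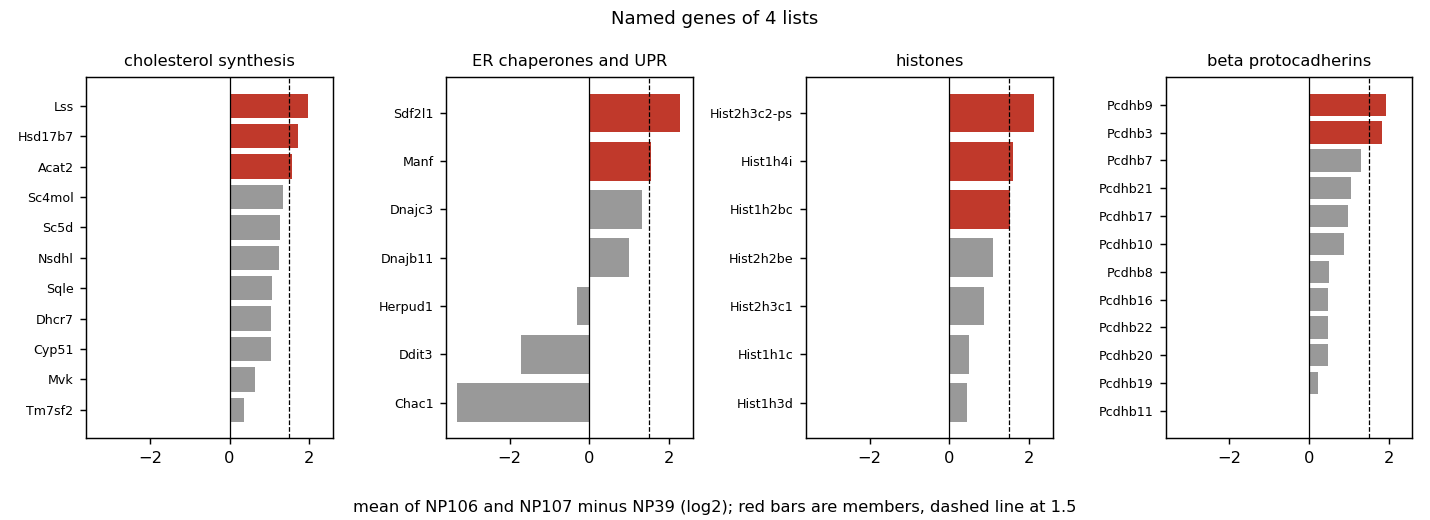
Bars give the mean of NP106 and NP107 minus NP39, in log2 units, for every named gene of 4 lists, with members in red and a dashed line at the rule's limit of 1.5. Members pass the dashed line by the rule. All 11 cholesterol genes and all 7 histone genes lie above 0 and 11 of 12 beta protocadherins do, while the endoplasmic reticulum list runs from 2.28 for Sdf2l1 to -3.34 for Chac1.

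Genes of the endoplasmic reticulum (ER) and secretory pathway gave 3 members. Sec16b, of ER exit sites, was at 7.93, 8.01 and 5.56 in NP106, NP107 and NP39, against 3.29 to 3.59 in ESCs. Sdf2l1, an ER protein of the chaperone complexes, read 6.36, 6.61 and 6.43 in ESCs, 8.18 in NP106, 8.12 in NP107 and 5.87 in NP39, the lowest of all arrays. Manf, a secreted protein of the stress response of the ER, was at 12.64, 12.71 and 11.13, just below the ESC range of 11.14 to 11.30. Of 24 genes of ER chaperones and the unfolded protein response 7 had names, and these 7 ran in both directions. All 7 have their names from the list of genes higher in NPCs. The rest of the list is therefore not represented, and its members, if any, are among those without a symbol. Dnajc3 and Dnajb11, both co-chaperones, had gaps of 1.31 and 0.99. Herpud1, of ER-associated degradation, had a gap of -0.30, and it was at 9.13 in NP39 against 8.70 and 8.95. Ddit3 and Chac1, targets of the ATF4 branch, were much higher in NP39, with gaps of -1.73 and -3.34. Chac1 read 7.33, 7.17 and 7.38 in ESCs, 7.83 and 7.78 in NP106 and NP107, and 11.14 in NP39. Chac2, of the same enzyme family as Chac1, was a member, at 9.40, 9.12 and 7.63, so the 2 relatives went opposite ways.

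Because the named genes of this list split, promoters were searched for the elements known to drive the list, as exact letters on both strands. The windows came from RefSeq (GRCm38.p6) and held 250 bases before and 50 after the start. Of the 72 named members 50 were in that table, and Manf was not. The ER stress element (CCAAT, 9 bases of any kind, CCACG) was in the windows of 0.137% of 27025 genes, in none of the 50 members and, of the 6 genes of the list in the table, in Dnajc3. A second form (ATTGG, 1 base, CCACG) was searched after the first was found in no member. It was in 0.0444% of genes, in none of the 50 members, and in Dnajb11 and Herpud1 of the list. The 3 stretches below show, on the strand of the gene, a gene lower in NP39 with the first form, a gene not lower with the second form, and the member Sdf2l1, in which neither was found. They lie at chr14:118937787-118937885 (plus strand), chr8:94386337-94386427 (plus strand) and chr16:17132384-17132633 (minus strand), and capitals mark the element, 105 to 87 bases before the start in Dnajc3 and 52 to 42 in Herpud1.
Dnajc3: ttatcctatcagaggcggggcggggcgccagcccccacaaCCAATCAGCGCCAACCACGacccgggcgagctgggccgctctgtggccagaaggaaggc
Herpud1: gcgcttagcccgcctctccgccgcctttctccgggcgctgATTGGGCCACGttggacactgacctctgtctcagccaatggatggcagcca
Sdf2l1: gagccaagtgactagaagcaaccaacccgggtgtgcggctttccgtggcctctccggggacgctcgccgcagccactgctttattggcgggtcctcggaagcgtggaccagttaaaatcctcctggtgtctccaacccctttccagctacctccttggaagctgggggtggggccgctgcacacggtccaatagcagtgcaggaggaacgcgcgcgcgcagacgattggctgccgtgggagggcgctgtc

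The core of the sterol regulatory element (TCAC, 1 base, CCAC) was in the windows of 1.44% of genes, in 1 of the 50 members (Syt1) and in none of the 9 cholesterol genes in the table. The ATF4 element (TGATG, 1 base, AAT) was in 1.08% of genes, in 1 of the 50 members, again Syt1, and in none of the 6 ER genes. Both searches cover only these exact letters in this window.

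Cell cycle and histone genes gave 4 members, with a median gap of 1.87, and the 4 were called higher in NPCs, as were 97.4% of all genes with a name. Cdkn2a, which encodes the cell cycle inhibitors INK4A and ARF, read 4.81 in each of the 3 ESC arrays, 9.15 in NP106, 8.93 in NP107 and 6.31 in NP39. NP39 was above all ESC arrays and kept 35.6% of the difference, and the NPC mean was higher by 3.32 ± 0.69 (limma adjusted p = 0.00572). Cdkn2c, an inhibitor of the same family and the other of the 10 CDK inhibitor and p53 genes with a name, had a gap of -0.09 and read 9.54, 9.53 and 9.63. All 7 histone genes with names were lower in NP39, with a median gap of 1.10. The 7 include 3 members, lower by the rule, and stand beside 56.1% of all genes with a name. Hist2h3c2-ps was at 7.31, 6.68 and 4.87, Hist1h4i at 8.30, 7.65 and 6.36, and Hist1h2bc at 11.15, 10.85 and 9.46. Hist2h2be, Hist2h3c1, Hist1h1c and Hist1h3d had gaps of 1.10, 0.88, 0.51 and 0.44. Histone genes are near copies of each other, and their probes may share transcripts.

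The other enzymes were 5 members. Dhrs7c, a dehydrogenase, was at 7.49, 7.82 and 4.44, against 4.02 to 4.23 in ESCs, the largest gap of the group at 3.22. St3gal6, a sialyltransferase, was at 6.09, 6.15 and 4.001, and B3galnt1, a glycosyltransferase, had a gap of 1.56. Ppil6, of the cyclophilin family, kept 57.0% of the difference in NP39, at 7.71, 7.56 and 6.12.

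The last 16 named members have other or no known functions. Fndc3c1 read 6.33, 6.45 and 6.25 in ESCs, 10.08 in NP106, 10.16 in NP107 and 6.55 in NP39. NP39 was just above the ESC arrays, and the NPC mean was higher by 2.58 ± 0.90, at the edge of the threshold (limma adjusted p = 0.0499). Lmcd1, a LIM domain protein, was at 9.18, 9.50 and 6.87, against 4.50 to 4.67 in ESCs. Gt(ROSA)26Sor, the noncoding transcript of the Rosa26 locus, was at 9.87, 9.83 and 7.75, against 6.55 to 6.98. The transcripts 1810011O10Rik and Gm13889 had the largest shares left in NP39, 65.8% and 64.5% of the log2 difference.

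Of the 10 members with the largest gaps, 9 had names, and NP39 was within 1 of the ESC mean in 8 of the 9. This stands beside 68.1% of named members, 26.9% of genes with a name and 79.0% of all genes. The ranking uses the NP39 value, so a low NP39 in these genes follows in part from it. Clic5 was the exception among the 9. Among the 38 members without a symbol NP39 was the lowest of the 6 arrays in all, with differences from the ESC mean between -5.55 and -0.27. This follows largely from the rule and from how names were found, so it is not a result. In ENSMUSG00000055148, which was called lower in NPCs, ESCs read 10.50, 10.48 and 10.58, NP106 and NP107 7.78 and 8.05, and NP39 5.07. There the NPC arrays were all below the ESC arrays and NP39 continued in the same direction (difference -3.56 ± 0.72, limma adjusted p = 0.00509).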

How the data were processed

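RNA from 3 ESC and 3 NPC samples was measured on Affymetrix mouse arrays, 1 array a sample. The authors deposited log2 values made by RMA (as named in the submitters' processing notes), which corrects background, quantile normalizes the arrays and summarizes probes per Ensembl gene under BrainCDF. Neither the annotation version nor the build is given in the sources used here. Of 17208 rows, 64 controls were left out. Array number limits the precision.

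Group and replicate came from the labels. Symbols came from a supplementary table by equal values within 0.0001. The fold change and p columns of that table were not used. The rule was applied to the log2 values as deposited. NPCs were compared with ESCs by lmFit and eBayes of limma 3.58.1 under R 4.3.3, without covariates. P-values were adjusted over 17144 genes by Benjamini-Hochberg, and the fit was tested on simulated data. Python 3.11.15 was used otherwise.

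The members and lists were chosen with earlier results of these data known, and functional groups were assigned once the names had been seen. The text names the 10 members with the largest gap, named members of the lists, the largest of each functional group, and genes at the limit, of which 1 just outside it is not reported here. Members outside that rule, and list genes that were not members, are named as context.

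Alternatives were other tests and variance models, a block on the replicate number, quantile normalization, median centring, filters, other limits and each array left out. Same-numbered ESC and NPC samples did not deviate together (correlations 0.026, 0.011 and -0.0064).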

Additional observations from a re-analysis of the deposited data

How the results depend on the processing

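With 1 array setting the members apart, their number depended on the limits: 306 genes passed with a difference above 1, 48 with a difference above 2, and 64 after a filter at the median level. With NP106 or NP107 left out as the reference there were 108 to 111 members, 100 or more of them shared with the 110. The members called higher in NPCs numbered 52, and 2 under a Welch test without moderation, 28 after the filter at the median, and 32 to 87 with each array left out, the highest without NP39 (NPC replicate 3). The filter lowers the count by testing fewer members. The members called lower numbered 9, 1 under the Welch test without moderation and 6 to 11 with each array left out. The shares of all genes called under these alternatives were not counted, so these counts describe the members only. With the replicate number as a block 51 were called higher and 11 lower, and the numbers did not pair the samples. NP39 was within 1 of the ESC mean in 57 members, within 0.5 of it in 34, and 55 to 58 were within 1 with each ESC array left out. Of 1180 values for named members under the alternatives, 987 kept direction and call, 157 lost the call, 36 gained it and 0 changed sign. Named members are higher in NPCs by how names were found, and several alternatives reuse the same difference. The kept direction is therefore not a result. Of the gains 20 came without NP39. The cause of other changes was not tested.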
